A study of Mus musculus with 48 samples.

Results

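The cytoplasmic ribosomal protein genes were taken by name. A gene belonged to the group when its name was Rpl or Rps, a number and an optional final a, l, x or y, or when it was Rplp0, Rplp1, Rplp2 or Rpsa, while the Rps6k kinases and names of pseudogenes were left out. This gave 81 genes of the 37074 gene names on the array, read by 176 of its 56605 probes. A probe had to be well above background on 4 or more of the 8 arrays in some group of mice to be tested, which left 77 of the 81 genes, 45 of the large and 32 of the small ribosomal subunit, among 22029 tested gene names. The genes not tested were Rpl37 and the paralogs Rpl10l, Rpl3l and Rpl39l, whose probes were above background on at most 2, 2, 1 and 0 arrays of a group. Each gene was read through its brightest tested probe.

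Liver RNA was measured in 48 male C57Bl6J mice, 1 array per mouse, in 6 groups of 8. WT mice were compared with Pparα hep-/- mice (labelled PPARaLKO), in which a Cre recombinase under the albumin promoter removes a floxed Ppara gene in hepatocytes while other liver cells keep it, and with germline Pparα-/- mice (labelled PPARaKO), which lack it in every cell. Each genotype received the control diet (CTRL) or a high-fat diet (HFD, 60% fat). The labels put the mice at 20 weeks old after 12 weeks on the diet, while the text of the study gives a shorter time on it. All 6 groups were housed at thermoneutrality and killed fed. The question put to the ribosomal protein genes was whether their messengers moved with the diet and whether PPARα, a nuclear receptor that turns on fatty acid oxidation genes, altered that response.

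Ribosomal proteins and ribosomal RNA form the small subunit, which decodes the messenger, and the large subunit, which joins amino acids. The proteins are needed in about equal amounts, and their messengers are among the most abundant in liver. Most carry a terminal oligopyrimidine (TOP) tract, a run of C and T that begins at the first transcribed base and lets the mTOR pathway and LARP1 switch their translation on and off together, so that a messenger level is only part of how much protein is made.

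The bases around the annotated start show how far the genes share that tract. RefSeq promoters (GRCm38.p6) were found for 60 of the 81 genes. On the gene's own strand, 39 of the 60 (65.0%) had a run of at least 5 C or T that began within 10 bases of the annotated start, against 11367 of 27025 genes (42.1%) with a promoter in the same table. For runs counted from a C, as in a classical TOP messenger, the counts were 30 of 60 and 7029 of 27025 (26.0%). Annotated starts can lie some bases away from the used ones, so a gene without a run by this rule may still have one further on. The windows of 30 bases below run from 10 bases before the annotated start, with a run that met the rule in capitals. They are the genes with the largest called diet changes of each genotype, up to 3 in each direction as described below, followed by Rps13, which moved apart from the others. In Rplp0, Rpl41 and Rps13 no run began within 10 bases of the annotated start, so nothing is in capitals there.
Rpl12, chr2:32961702-32961731, plus strand: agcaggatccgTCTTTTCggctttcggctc
Rps12, chr10:23787190-23787219, minus strand: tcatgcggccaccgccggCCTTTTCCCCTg
Rpsa, chr9:120127756-120127785, plus strand: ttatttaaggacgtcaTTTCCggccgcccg
Rpl28, chr7:4792955-4792984, plus strand: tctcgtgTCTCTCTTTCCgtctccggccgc
Rplp0, chr5:115559457-115559486, plus strand: cgggtttcgaggaccgcctggttctcctat
Rpl27a, chr7:109519185-109519214, plus strand: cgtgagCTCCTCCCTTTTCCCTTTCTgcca
Rplp2, chr7:141447641-141447670, plus strand: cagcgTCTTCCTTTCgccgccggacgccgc
Rpl41, chr10:128549149-128549178, minus strand: gggccggctcggaagtgacgacaccgagca
Rps27l, chr9:66946076-66946105, plus strand: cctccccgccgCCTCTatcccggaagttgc
Rps13, chr7:116334171-116334200, minus strand: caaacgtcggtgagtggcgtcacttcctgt

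The arrays held 28234 to 38217 spots well above background, with median spot intensities of 56 to 91 over backgrounds of 20 to 36, and no spot was saturated. The ribosomal protein genes lay far above these medians: 75 of the 77 had a mean log2 signal of at least 14. For the 64 probes printed as 10 spots, single spots of 1 array differed with a median SD of 0.12 log2. The mean of the 10 spots, which stands for the probe, had a median SE of 0.04. Mice of 1 group differed in that mean with a median SD of 0.10. Ppara itself, with 2 probes, was lower in Pparα-/- than in WT mice on CTRL, with log2 changes of -0.65 (adjusted p = 1.1e-06) and -1.11 (adjusted p = 5.27e-13). In Pparα hep-/- mice the first of these probes was lower on CTRL (-0.42, adjusted p = 0.000887), and the second was not called on CTRL (-0.10, adjusted p = 0.454) but was lower on HFD (-0.68, adjusted p = 3.34e-08). Array weights ran from 0.189 to 2.53, and 5 arrays had a weight under 0.5: WT CTRL mouse 6, WT HFD mice 2 and 6, Pparα hep-/- CTRL mouse 1 and Pparα-/- CTRL mouse 3.

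To place each mouse, the median deviation of the 77 genes from their means over all mice was taken. In WT mice on CTRL the lowest, median and highest values were -0.01, 0.07 and 0.23 log2 units, and on HFD they were -0.15, -0.07 and 0.02. In Pparα hep-/- mice they were -0.07, -0.02 and 0.30 on CTRL and -0.16, -0.12 and -0.01 on HFD. In Pparα-/- mice they were -0.09, -0.02 and 0.13 on CTRL and -0.01, 0.07 and 0.15 on HFD. HFD mice lay lower than CTRL mice in the first 2 genotypes and higher in Pparα-/- mice, where the direction turned when the arrays were scaled another way, as described with the diet results of that genotype. The groups overlapped in each pair, and the pooled SD within groups was 0.0791. The highest value of all, 0.30, belonged to Pparα hep-/- CTRL mouse 1, an array of low weight.

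**Figure D1:**
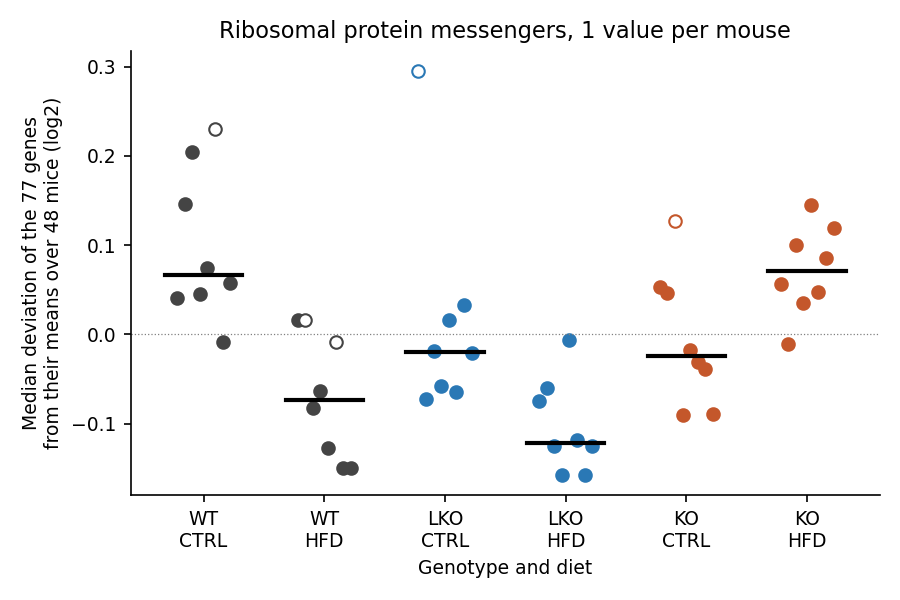
Median deviation of the 77 ribosomal protein genes from their means over 48 mice (log2, vertical axis), 1 point per mouse, in the 6 groups of genotype and diet (LKO, Pparα hep-/-; KO, Pparα-/-). Lines give the group median and open points the 5 arrays of weight under 0.5. The HFD mice lie lower than the CTRL mice in WT and LKO and higher in KO, where the direction turned under scaling to the 75th percentile, and Pparα hep-/- CTRL mouse 1 stands alone at 0.30.

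In WT mice the messengers of most ribosomal proteins were lower on the high-fat diet. Of the 77 genes, 63 were lower on HFD and 0 higher by limma's moderated test at an adjusted p of at most 0.05 (69 lower and 0 higher at an unadjusted p under 0.05), where 19.5% of all tested genes were called, 10.1% lower and 9.32% higher. The median change was -0.19 log2 units against 0.00 over all tested genes and 0.02 over the 1326 other genes with a mean log2 signal of at least 14. Both subunits took part: 36 of 45 large subunit genes and 27 of 32 small subunit genes fell, and 74 of 77 estimates were below 0. The fall was shallow for each gene, and only in Rpl10, Rps15 and Rps25 did no HFD mouse overlap with a CTRL mouse, against 0.617% of all tested genes. These values come from quantile normalized arrays. In a second scaling, the scanner's background-subtracted signal was set against the 75th percentile of each array, called the other scaling from here on, and it gave 64 lower genes, 60 of them among the 63, with a median of -0.20.

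Rpl12, a protein of the stalk base of the large subunit, changed most. Its log2 signal in WT mice was 15.49, 15.70 and 16.11 (lowest, median, highest) on CTRL and 15.08, 15.26 and 15.58 on HFD. The groups overlapped, but each of the 8 HFD mice lay below the CTRL mean. The fitted change was -0.45 (SE 0.07, adjusted p = 5.41e-06), so that the signal fell by 26.8%, and its other probes gave -0.42 and -0.57. Rps12, a small subunit protein, was at 15.72, 15.91 and 16.40 on CTRL and 15.42, 15.64 and 15.91 on HFD, a change of -0.32 (SE 0.07, adjusted p = 0.000527). All 8 HFD mice were again below the CTRL mean. Rpsa, which is both a small subunit protein and the laminin receptor precursor, was at 15.90, 16.01 and 16.26 on CTRL and 15.61, 15.71 and 16.07 on HFD, a change of -0.30 (SE 0.06, adjusted p = 0.000898) with 6 of 8 HFD mice below the CTRL mean.

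A few ribosomal proteins are also known for other roles or for their signalling, and some of them are given next. Rps6, the small subunit protein that S6 kinases phosphorylate, fell from 15.29, 15.45 and 15.69 to 15.08, 15.23 and 15.36 (-0.29, SE 0.05, adjusted p = 2.33e-05). Rps27a, made as a fusion with ubiquitin, fell by 0.25 (adjusted p = 0.00149), with HFD mice at 15.91 to 16.15 and CTRL mice at 16.07 to 16.47. Rpl5, which with Rpl11 binds the small ribosomal RNA of the large subunit and can hold back MDM2, fell by 0.21 (adjusted p = 0.0037, but 0.0584 without array weights). Its partner Rpl11 was not called, with a change of -0.04 (95% interval -0.15 to 0.07, adjusted p = 0.676). The difference between the 2 partners was not tested.

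The acidic stalk, which brings elongation factors to the ribosome, is made of Rplp0 at its base and Rplp1 and Rplp2 at its tip. Rplp0 was at 15.64, 15.85 and 16.20 on CTRL and 15.33, 15.78 and 16.01 on HFD in WT mice, a fitted change of -0.22 (adjusted p = 0.00223). Rplp1 (-0.10, 95% interval -0.24 to 0.03) and Rplp2 (-0.14, 95% interval -0.26 to -0.01) were not called, with adjusted p of 0.311 and 0.122. The WT groups overlapped for all 3 genes.

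In Pparα hep-/- mice fewer of the genes passed the test, all of them lower on HFD. Of the 77, 25 were lower and 0 higher (34 lower and 0 higher at an unadjusted p under 0.05 in limma), against 11.8% and 10.7% of all tested genes, and the median change was -0.07. The large subunit gave 16 of the lower genes and the small subunit 9. Of the 25, 21 had also fallen in WT mice. The other scaling moved this count a long way: 75 of 77 genes were then lower, with a median of -0.25, while the 1326 other bright genes moved to -0.15 from 0.01. In both scalings the ribosomal protein genes thus lay below the other bright genes, by different amounts.

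Rpl28, of the large subunit, had the largest change in this genotype with array weights, and Rplp0 (-0.29) and Rpl10a (-0.26) had it without them, followed closely by Rpl28 (-0.26). Rpl28 moved from 16.20, 16.34 and 16.49 on CTRL to 15.96, 16.07 and 16.34 on HFD (-0.27, SE 0.05, adjusted p = 0.000192). All 8 HFD mice lay below the CTRL mean, and the ranges overlapped. Rplp0 was at 15.63, 15.80 and 16.33 on CTRL and 15.48, 15.68 and 15.76 on HFD (-0.25, SE 0.05, adjusted p = 0.000152). Rpl27a, of the large subunit, was at 15.27, 15.38 and 15.47 on CTRL and 14.98, 15.13 and 15.31 on HFD (-0.24, SE 0.04, adjusted p = 0.000111). In WT mice the changes of these 3 genes were -0.24, -0.22 and -0.22. Rpl36 alone had CTRL and HFD mice that did not overlap, against 0.640% of all tested genes. Rpl12 (-0.04, adjusted p = 0.657), Rps12 (0.00, adjusted p = 0.989) and Rpsa (-0.06, adjusted p = 0.477), which led in WT mice, were not called here, but with the other scaling Rpl12 was lower (-0.23, adjusted p = 0.00145). Without array weights, of which Pparα hep-/- CTRL mouse 1 had the lowest, these 3 changes were -0.14, -0.09 and -0.13 and were not called either (adjusted p = 0.464, 0.653 and 0.4).

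In Pparα-/- mice the sign of the diet change depended on how the arrays were scaled. With quantile normalization, 34 of the 77 genes were higher on HFD and 1 was lower, against 13.8% and 12.6% of all tested genes, with a median of 0.11. Scaled to the 75th percentile, 0 were higher and 20 lower (1 higher and 33 lower at an unadjusted p under 0.05 in limma), with a median of -0.08. Between the scalings the sign turned for 57 of 77 genes, and 4 genes were called in opposite directions. The 1326 other bright genes also moved, from 0.04 to -0.15, so that the ribosomal protein genes lay above them in both. Without array weights the count also fell, to 8 higher and 0 lower (28 higher and 1 lower at an unadjusted p under 0.05), with quantile values. No called gene had Pparα-/- CTRL and HFD mice that did not overlap, where 1.61% of all tested genes did.

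**Figure D2:**
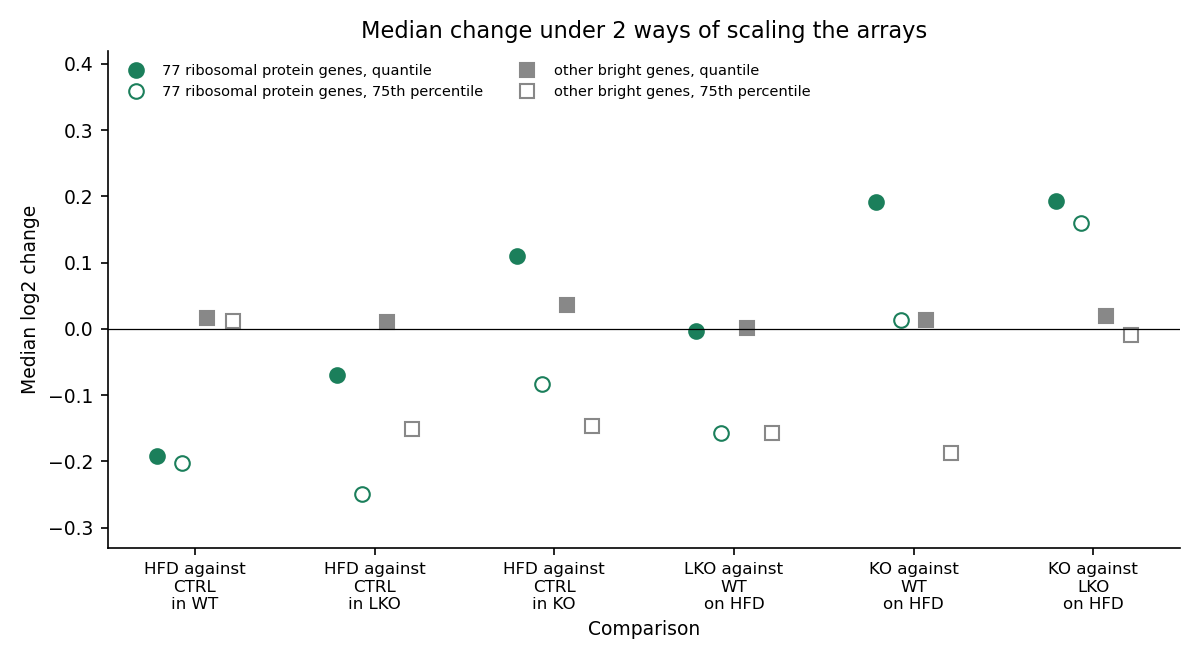
Median log2 change (vertical axis) of the 77 ribosomal protein genes (circles) and of 1326 other genes with a mean log2 signal of at least 14 (squares) in 6 comparisons, with quantile normalization (filled) and with scaling to the 75th percentile of each array (open). The median of the ribosomal protein genes turned from 0.11 to -0.08 for the diet in Pparα-/- mice and fell from 0.19 to 0.01 for Pparα-/- against WT on HFD, while it stayed near -0.20 for the diet in WT mice and at 0.19 and 0.16 for Pparα-/- against Pparα hep-/- on HFD. In the first 2 of these comparisons the median of the other genes moved from 0.04 to -0.15 and from 0.01 to -0.19.

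Among the genes called higher in Pparα-/- mice with quantile values, Rps12 was at 15.64, 15.90 and 16.07 on CTRL and 15.93, 16.11 and 16.26 on HFD (0.30, SE 0.06, adjusted p = 0.000243). All 8 HFD mice lay above the CTRL mean. With the other scaling the change was 0.10 (adjusted p = 0.118). Rpl41, the smallest ribosomal protein, was at 16.49, 16.66 and 16.95 on CTRL and 16.61, 16.90 and 17.12 on HFD (0.24, adjusted p = 0.00109, and -0.08 with the other scaling). Rplp2 of the stalk was at 16.62, 16.71 and 16.93 on CTRL and 16.77, 16.92 and 17.16 on HFD (0.24, adjusted p = 0.00135, but 0.0647 without array weights, and a change of -0.08 with the other scaling). For these 3 genes the CTRL and HFD mice overlapped. The remaining stalk genes, Rplp0 (0.03, adjusted p = 0.646) and Rplp1 (0.14, adjusted p = 0.0746), were not called.

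The 1 gene called lower in Pparα-/- mice was Rps27l, a paralog of Rps27 that is known as a p53 target. It was at 15.58, 15.70 and 15.93 on CTRL and 15.51, 15.57 and 15.75 on HFD (-0.18, SE 0.05, adjusted p = 0.009, and -0.36 with the other scaling). The ranges overlapped, with 7 of 8 HFD mice below the CTRL mean. Its other probe gave -0.23 (adjusted p = 0.00103). Without array weights the change was -0.15 (adjusted p = 0.086).

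**Figure D3:**
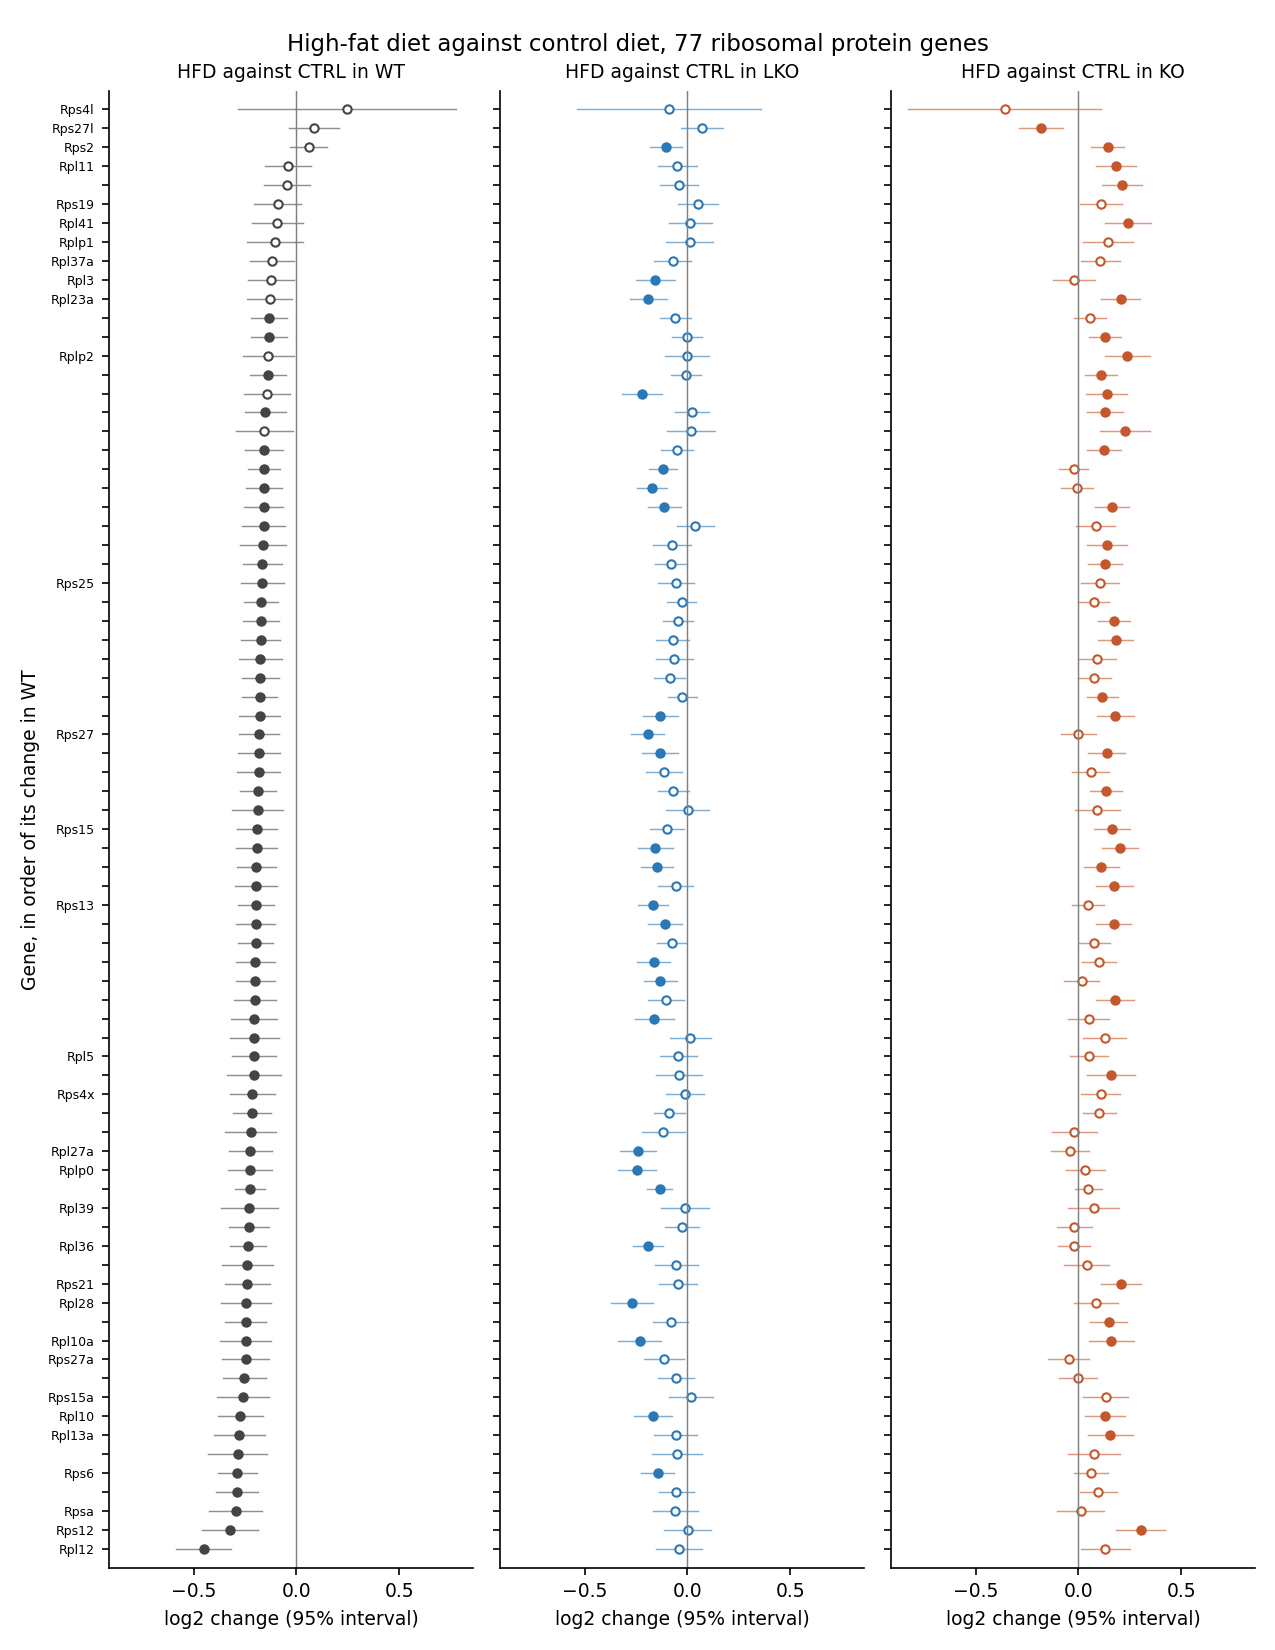
Change on HFD against CTRL (log2, horizontal axes, with 95% intervals) of each of the 77 ribosomal protein genes in WT, Pparα hep-/- (LKO) and Pparα-/- (KO) mice, in order of the change in WT mice, with names for most of the genes described in the text; filled points passed an adjusted p of at most 0.05. With quantile normalization 63 genes were lower in WT, 25 lower in LKO and 34 higher and 1 lower in KO, and with scaling to the 75th percentile the KO count became 0 higher and 20 lower.

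Read gene by gene across the genotypes with quantile values, 24 genes were called lower in WT mice alone, 13 lower in WT and Pparα hep-/- mice, and 26 lower in WT and higher in Pparα-/- mice, 8 of which were also lower in Pparα hep-/- mice. Of all tested genes, 5.28%, 1.55%, 0.917% and 0.213% had these 4 patterns. The estimate was below 0 in WT and above 0 in Pparα-/- mice for 65 of the 77, although 57 signs in Pparα-/- mice turned with the scaling. Rpl37a, Rplp1, Rps19 and Rps4l were not called in any genotype, as 51.2% of all tested genes were not. Being called in 1 genotype and not in another does not show a difference, so the responses themselves were compared.

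The diet response of Pparα-/- mice was above that of WT mice for 66 genes and below it for 1, against 7.75% and 7.77% of all tested genes, with a median difference of 0.28. With scaling to the 75th percentile the difference kept its sign, with a median of 0.11, 73 of 77 signs unturned and 10 genes higher and 1 lower, and without array weights 37 genes were higher. Against Pparα hep-/- mice, the response of Pparα-/- mice was higher for 30 genes and lower for 1 (2.55% and 1.38% of all tested genes, 3.93% together), with medians of 0.18 and 0.17 under the 2 scalings, where the second gave 16 genes higher. Without array weights the quantile count fell to 4, although the median was 0.20 and 58 genes were higher at an unadjusted p under 0.05, against 56 with weights. The responses of Pparα hep-/- and WT mice differed for 5 genes, 5 higher and 0 lower (29 higher and 1 lower at an unadjusted p under 0.05 in limma), against 4.86% and 6.30% of all tested genes, and the median of 0.11 turned to -0.05 with scaling to the 75th percentile. That count ran from 2 (without WT HFD mouse 8) to 14 (without Pparα hep-/- CTRL mouse 1) when single mice were left out. These 3 comparisons share their diet contrasts with each other. Under the other scaling the median of the 1326 other bright genes fell from 0.00 to -0.18 for Pparα-/- against WT mice. It fell from 0.00 to -0.15 for Pparα hep-/- against WT mice and was -0.01 and -0.02 between the null genotypes. In all 3 comparisons and both scalings the median of the ribosomal protein genes lay above it.

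Among the called genes, Rps12 and Rpl12 had the largest differences of response between Pparα-/- and WT mice, 0.62 (SE 0.09, adjusted p = 2.75e-05) and 0.58 (SE 0.09, adjusted p = 5.25e-05), and both kept them under the other scaling (0.43, adjusted p = 0.000228, and 0.38, adjusted p = 0.00327). They also led the called genes between Pparα hep-/- and WT mice, with 0.41 for Rpl12 (adjusted p = 0.00228) and 0.32 for Rps12 (adjusted p = 0.0145). Under the other scaling these 2 values were 0.19 (adjusted p = 0.133) and 0.16 (adjusted p = 0.148). Both lost their call without array weights. Between the 2 null genotypes, Rpl23a, a protein at the exit of the large subunit's tunnel, had 0.40 (adjusted p = 0.000266) and Rpl10a 0.39 (adjusted p = 0.00164). Rps27l ran the other way, at -0.27 against WT (adjusted p = 0.0186) and -0.25 against Pparα hep-/- mice (adjusted p = 0.0404), and neither value passed without array weights (adjusted p = 0.166 and 0.389).

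**Figure D4:**
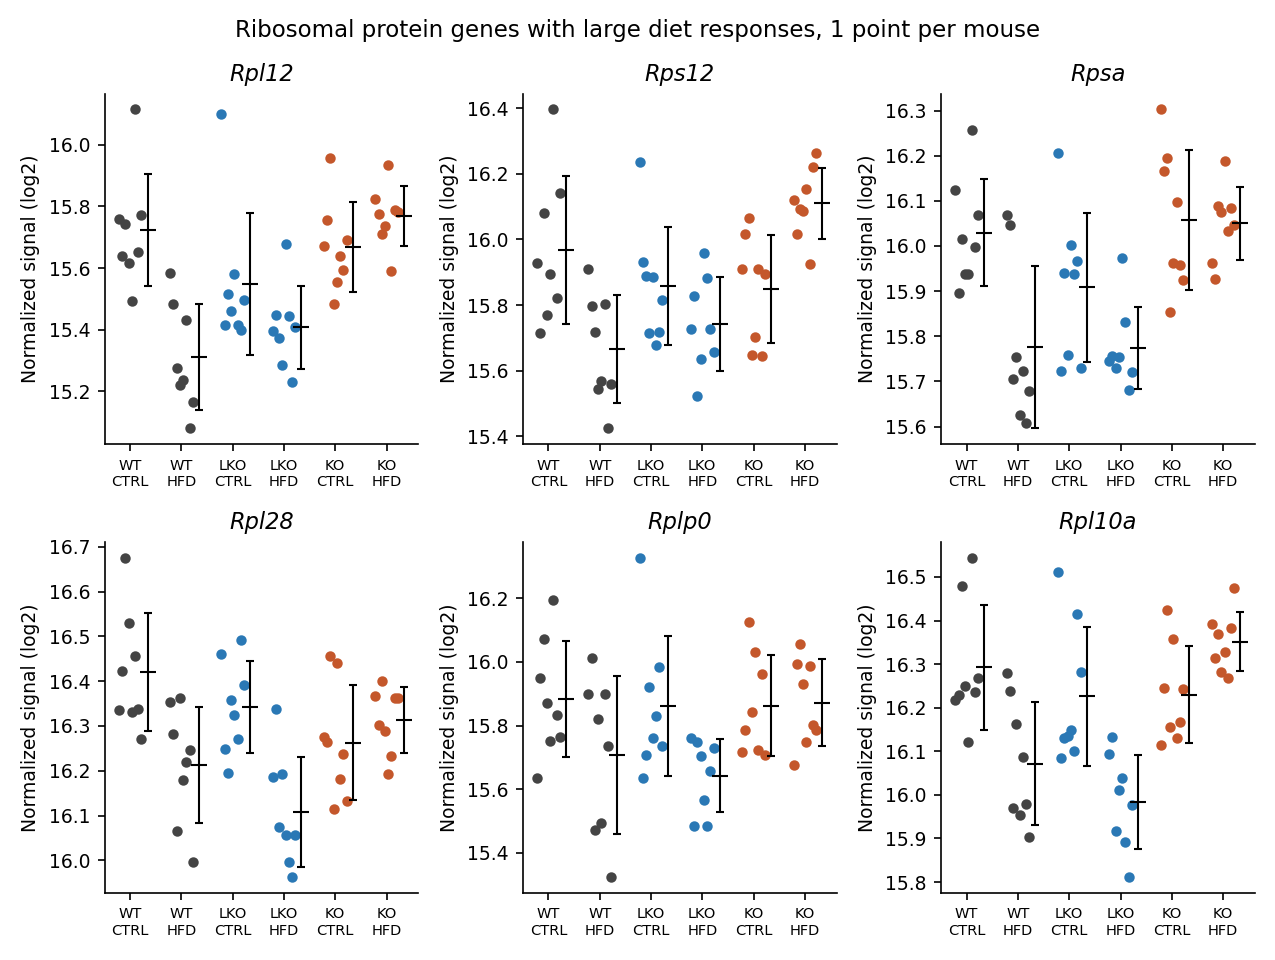
Normalized log2 signal (vertical axes) of Rpl12, Rps12, Rpsa, Rpl28, Rplp0 and Rpl10a in each mouse of the 6 groups (LKO, Pparα hep-/-; KO, Pparα-/-), with the group mean and SD in black. Rpl12 and Rps12 were called lower on HFD in WT mice alone, although scaling to the 75th percentile also gave Rpl12 as lower in LKO (-0.23), Rpl28 and Rplp0 were lower on HFD in WT and LKO mice, and the HFD mice of KO lie above those of LKO for Rpl10a without overlap.

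Levels were next compared between genotypes on 1 diet. On CTRL, more of the genes were lower than higher in both null genotypes against WT. In Pparα hep-/- mice 31 were lower and 2 higher, against 12.9% and 12.3% of all tested genes, with a median of -0.11 (-0.12 with the other scaling), and the ranges overlapped for every gene, where 1.37% of all tested genes were called without overlap. In Pparα-/- mice 30 were lower and 2 higher, against 18.4% and 16.9%, with a median of -0.10 (-0.09 with the other scaling), and the ranges of Rpl21, Rps3 and Rps13 did not overlap, against 6.61%. Markers of some liver cell types were higher in the same comparisons. Of 10 macrophage markers 3 were higher in Pparα hep-/- and 5 in Pparα-/- mice than in WT mice, with medians of 0.58 and 0.61 and summed log2 levels of 15.64 to 17.14 and 15.28 to 16.88 against 14.80 to 16.42. Of 6 endothelial markers 3 and 2 were higher and 0 and 1 lower, and of 9 lymphocyte markers 0 and 4 were higher and 1 and 0 lower. Other lists had few higher markers. Of 9 hepatocyte markers 1 was higher and 3 lower in each null genotype, of 8 neutrophil markers 1 and 0 were higher and 0 and 1 lower, and of 5 cholangiocyte markers 0 were higher and 0 and 1 lower, with medians of -0.20 and -0.46. The part of these cells in the result was not tested. Both comparisons use the WT CTRL mice, as does the diet response in WT mice, so the same mice enter all 3. The first count moved most with single mice, to 21 called genes without WT CTRL mouse 2 and 20 without WT CTRL mouse 3, and it was 9 without array weights. The null genotypes differed from each other for 17 of the 77 genes, 11 higher and 6 lower in Pparα-/- mice, against 26.6% of all tested genes, with a median of 0.00, and only Rps13 did so without overlap, against 4.77%. Rps15a (0.28, adjusted p = 0.000163) and Rps27l (0.28, adjusted p = 0.000102) led the higher genes.

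On CTRL the small subunit gene Rps21 had a change of -0.24 (adjusted p = 0.000592) in Pparα hep-/- against WT mice. The WT mice were at 15.46, 15.61 and 15.77 and the Pparα hep-/- mice at 15.27, 15.39 and 15.66. The ranges overlapped, with 7 of 8 Pparα hep-/- mice below the WT mean. Rps2 (0.18, adjusted p = 0.00141) and Rpl17 (0.17, adjusted p = 0.0207, but 0.0617 without array weights) were higher. The probe read for Rps2 lies away from the gene's second probe, as described with the probes below. In Pparα-/- mice Rpl13a, a large subunit protein also known for silencing messengers after interferon, was at 14.71, 14.80 and 15.14 against 15.06, 15.22 and 15.42 in WT mice (-0.41, SE 0.06, adjusted p = 8.53e-07). Only Pparα-/- CTRL mouse 3 overlapped with WT mice. Rpl11 was lower than in both other genotypes, with -0.37 against WT (adjusted p = 8.98e-07) and -0.29 against Pparα hep-/- mice (adjusted p = 1.37e-05). Rpl3, at the catalytic centre of the large subunit, was higher than in WT (0.20, adjusted p = 0.00464), as was Rps27l (0.23, adjusted p = 0.00234).

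On HFD most of the genes differed between the 2 null genotypes. Against Pparα hep-/- mice, Pparα-/- mice had 66 of the genes higher and 1 lower, where 16.9% and 15.0% of all tested genes were, with a median of 0.19. This stood under the other scaling, with 60 higher and 1 lower, all 61 of them called in the same direction in both, and a median of 0.16. The HFD groups did not overlap for 18 genes, 17 of them higher, against 7.02% of all tested genes. Against WT mice 60 were higher and 3 lower, where 24.1% and 23.7% of all tested genes were, with a median of 0.19, but the other scaling gave 12 higher and 9 lower and a median of 0.01, and turned 31 signs. The median of the other bright genes moved from 0.01 to -0.19 in this comparison, so that the ribosomal protein genes lay above them in both scalings. The ranges of Pparα-/- and WT mice on HFD did not overlap for 11 genes, 10 higher, against 7.20%. Pparα hep-/- and WT mice on HFD differed for 5 genes, 2 higher and 3 lower, against 28.6% of all tested genes (14.6% were called higher), with a median of 0.00 and overlap in all 77, where 1.50% of all tested genes were called without overlap. The other scaling turned 35 signs there and gave 0 higher and 56 lower, with 0 higher and 64 lower at an unadjusted p under 0.05 in limma and a median of -0.16, the same as the -0.16 of the other bright genes.

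Rpl10a and Rps15a led the genes that were higher in Pparα-/- than in Pparα hep-/- mice on HFD. Rpl10a, a large subunit protein, was at 15.81, 15.99 and 16.13 in Pparα hep-/- mice and 16.27, 16.35 and 16.47 in Pparα-/- mice (0.40, SE 0.05, adjusted p = 1.45e-08, and 0.35 with the other scaling). Rps15a, of the small subunit, was at 14.35, 14.42 and 14.56 against 14.70, 14.84 and 14.91 (0.39, SE 0.05, adjusted p = 3.01e-08, and 0.38 with the other scaling). For both, every Pparα-/- mouse was above every Pparα hep-/- mouse. Against WT mice Rpl12 and Rps12 led the higher genes, each with 0.54 (adjusted p = 1.63e-10 and 2.4e-10), and each with 0.35 under the other scaling. Between Pparα hep-/- and WT mice the called genes were Rpl12 (0.20), Rps12 (0.19), Rps27 (-0.15), Rps26 (-0.12) and Rpl35a (-0.10). Rpl12 and Rps12 came to 0.02 and 0.03 with the other scaling, and without array weights these 2 and Rpl35a were not called (adjusted p = 0.511, 0.559 and 0.139). The probe read for Rps27 has its mm9 position on another chromosome than the gene, as described with the probes below.

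Rps13, a small subunit protein, stood apart in Pparα-/- mice. On CTRL its log2 signal was 15.39, 15.47 and 15.72 in WT, 15.30, 15.45 and 15.71 in Pparα hep-/- and 14.19, 14.26 and 14.56 in Pparα-/- mice. On HFD it was 15.20, 15.33 and 15.47, then 15.23, 15.28 and 15.35, and 14.22, 14.35 and 14.42 in the same order. Every Pparα-/- mouse lay below every other mouse. Against WT, the signal fell by 56.3% on CTRL (-1.19, SE 0.04, adjusted p = 8.7e-26), and the change was -0.95 on HFD (adjusted p = 7.77e-25). Against Pparα hep-/- mice the changes were -1.16 (adjusted p = 2.77e-27) and -0.95 (adjusted p = 7.94e-26), and with the other scaling all 4 values lay between -1.24 and -0.98. Pparα hep-/- and WT mice were not called different (-0.03 on CTRL, 95% interval -0.12 to 0.05, adjusted p = 0.612).

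Rps13 has 2 tested probes, and they did not give the same picture. The difference above comes from the bright one, printed as 10 spots, whose bases are spread over 855 positions of mm9. The dim one, with a mean log2 signal of 7.74 and 1 spot, lies inside that span, and the longest run of bases that the probes share is 5. Both are shown because the finding rests on which one is read.
A_55_P2146749, bright, chr7:123475080-123475934 in mm9: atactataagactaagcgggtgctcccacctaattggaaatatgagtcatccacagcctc
A_52_P646112, dim, chr7:123475113-123475172 in mm9: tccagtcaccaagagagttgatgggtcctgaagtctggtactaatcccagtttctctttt
The dim probe was lower in Pparα-/- than in WT mice on CTRL (-0.74, adjusted p = 9.46e-05), but also in Pparα hep-/- mice (-0.53, adjusted p = 0.00449). On HFD it was not called, with 0.08 against WT (adjusted p = 0.631) and 0.02 against Pparα hep-/- mice (adjusted p = 0.945). The difference of Rps13 on both diets and against both genotypes thus rests on the bright probe alone. The signal of a probe depends on how well the messenger matches its bases as well as on the amount of messenger, and whether those bases are the same in the 3 genotypes was not tested, so this probe alone does not show that there is less messenger.

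Rps4l, which RefSeq lists as a transcribed pseudogene, was the dimmest of the 77, with a mean log2 signal of 11.45. It was lower in Pparα-/- than in WT mice on HFD (-0.74, SE 0.23, adjusted p = 0.0075), at 10.16, 10.89 and 11.99 against 11.04, 11.36 and 12.32. The ranges overlapped widely, since its SD between mice was 0.474, and without array weights the change was -0.56 (adjusted p = 0.059). Its partner Rps4x was higher in Pparα-/- mice in the same comparison (0.22, adjusted p = 0.000179, and 0.05 with the other scaling) and was lower on HFD in WT mice (-0.21, adjusted p = 0.00346).

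Of the partners of the other paralogs, Rpl10 fell on HFD in WT mice from 17.49, 17.56 and 17.73 to 17.22, 17.34 and 17.44, without overlap (-0.27, SE 0.05, adjusted p = 0.000308), and fell in Pparα hep-/- mice (-0.17, adjusted p = 0.00763). In Pparα-/- mice its change was 0.13 (adjusted p = 0.0395, but 0.251 without array weights) with quantile values and -0.26 (adjusted p = 0.000685) with the other scaling. Rpl39 was called lower in WT mice (-0.23, adjusted p = 0.0154), but not without array weights (-0.18, adjusted p = 0.112). Rpl3 fell in Pparα hep-/- mice (-0.16, adjusted p = 0.0155) and was not called in WT mice (-0.12, adjusted p = 0.119). Rps27 fell by 0.18 in WT and 0.19 in Pparα hep-/- mice, with an estimate of 0.00 in Pparα-/- mice, whereas its paralog Rps27l was not called in the first 2 (0.09 and 0.07). The probe read for Rps27 has its mm9 position on chromosome 9, where Rps27l lies, while the RefSeq gene Rps27 lies on chromosome 3. Whether it reads Rps27 alone was not tested.

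**Figure D5:**
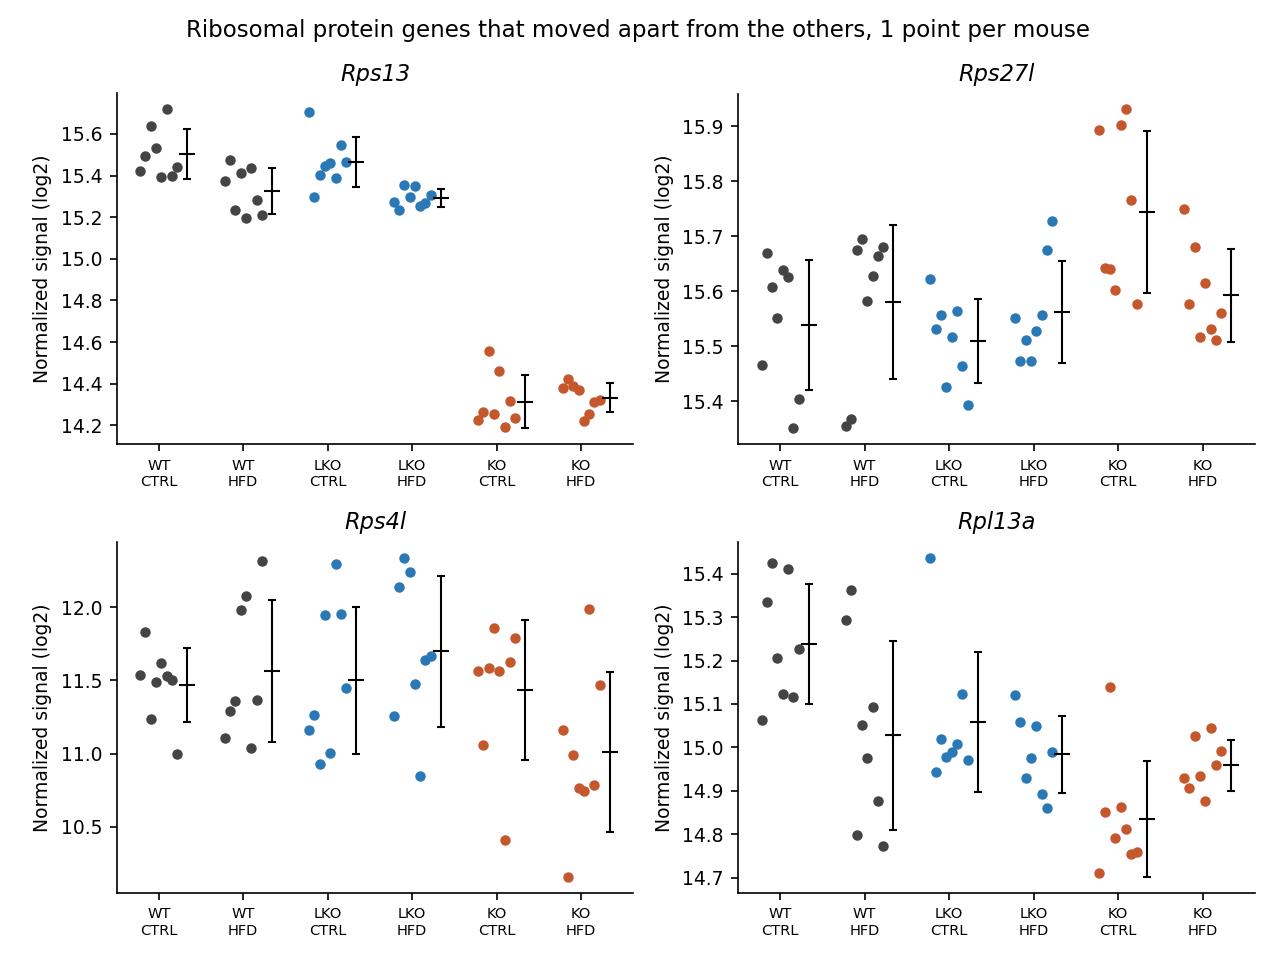
Normalized log2 signal (vertical axes) of Rps13, Rps27l, Rps4l and Rpl13a in each mouse of the 6 groups (LKO, Pparα hep-/-; KO, Pparα-/-), with the group mean and SD in black. The Pparα-/- mice lie at 14.19 to 14.56 for Rps13, below all other mice, while Rps4l spreads widely within every group.

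Most of the 77 genes were correlated over the 48 arrays. Their median Pearson's correlation with the other ribosomal protein genes had a median of 0.60, as a description over arrays that share normalization and groups. The lowest values belonged to Rps4l (-0.28), Rps13 (-0.05), Rps27l (0.01) and Rps2 (0.01). Outside the name rule, the signals most like Rpl12 were 3 unnamed transcripts with r of 0.967, 0.917 and 0.905, those most like Rps12 had r of 0.950, 0.945 and 0.936, and those most like Rpl28 had 0.905, 0.890 and 0.877. Ribosomal protein genes have many processed copies in the genome, and a probe cannot tell a gene from a near-identical copy.

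The values above come from the brightest probe of each gene, which leaves 91 of the 168 tested probes. On the same arrays, 72 of these 91 were lower and 0 higher on HFD in WT mice, 36 lower and 0 higher in Pparα hep-/- mice, and 31 higher and 2 lower in Pparα-/- mice. Of all tested probes, 10.1% were lower and 8.60% higher in WT, 10.8% and 9.46% in Pparα hep-/- and 12.6% and 12.2% in Pparα-/- mice. With the other scaling the counts of the 91 were 68 lower and 0 higher, 74 lower and 0 higher, and 8 lower and 2 higher. In WT mice the probes had 1 sign in 56 of 57 genes with several tested probes, and in Pparα-/- mice in 40. Rps19, mutated in Diamond-Blackfan anaemia, had 1 probe higher on HFD in Pparα-/- mice (0.16, adjusted p = 0.0185) and 1 lower (-0.32, adjusted p = 0.000273), while its brightest was not called (0.11, adjusted p = 0.104). The brightest probes of Rps27 and Rps29 have mm9 positions on another chromosome than the RefSeq gene, chromosomes 9 and 2. That of Rps2 lies on chromosome 17 from 42864841 to 42864900, away from its second probe at 24857583 to 24857642, which was not called for the diet in any genotype (0.04, -0.05 and 0.07).

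The neighbours of these genes in the pathway were read from lists chosen with earlier results known. Their counts are to be read against the shares of all tested genes that were lower and higher on HFD, 10.1% and 9.32% in WT, 11.8% and 10.7% in Pparα hep-/- and 12.6% and 13.8% in Pparα-/- mice. Of 7 tested ribosomal proteins outside the name rule, 4 were lower on HFD in WT mice and 0 higher (Gnb2l1, which encodes the ribosomal scaffold RACK1, -0.25, adjusted p = 0.0015), 1 was lower and 0 higher in Pparα hep-/- mice, and 2 were lower and 2 higher in Pparα-/- mice. With the other scaling 4, 6 and 5 were lower and 0 higher in the 3 genotypes. Of 23 other genes known for TOP messengers, 13 were lower and 0 higher in WT mice, 9 lower and 2 higher in Pparα hep-/- mice and 5 higher and 1 lower in Pparα-/- mice, with medians of -0.13, -0.10 and 0.02. With the other scaling the counts were 8 lower and 0 higher, 17 lower and 2 higher, and 6 lower and 1 higher, and the median in Pparα-/- mice turned to -0.11. The list includes the elongation factor Eef2 (-0.18 in WT, adjusted p = 0.0044), the nucleolar chaperone Npm1 (-0.24, adjusted p = 0.0052) and Tpt1 (-0.18, adjusted p = 0.032). The 8 tested genes that host small nucleolar RNAs and carry TOP starts, such as Gas5 (-0.14, adjusted p = 0.27), gave 0 calls in WT mice by limma, with 2 lower and 0 higher at an unadjusted p under 0.05 and a median of -0.13. Of the 8, 4 were lower and 1 higher in Pparα hep-/- mice, and in Pparα-/- mice 2 were lower and 0 higher, with medians of -0.18 and -0.11. Snhg6 was lower in both (-0.38, adjusted p = 0.00135, and -0.25, adjusted p = 0.0368), as was Snhg5 (-0.31, adjusted p = 0.0132, and -0.36, adjusted p = 0.00485).

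Among factors that build ribosomes, 21 of 69 (30.4%) were lower and 2 higher on HFD in WT mice, in both scalings, with a median of -0.17. Among them were the nucleolar GTPase Gnl3 (-0.74, adjusted p = 0.00018), the RNA polymerase I factor Rrn3 (-0.63, adjusted p = 7.6e-06) and the nucleolar proteins Nop58 (-0.62, adjusted p = 0.00092) and Nop56 (-0.54, adjusted p = 0.00035). In Pparα hep-/- mice 6 were lower and 3 higher, as in Pparα-/- mice, with medians of -0.01 in both, and the 8.7% that were lower lay under the share of all tested genes. Mitochondrial ribosomal proteins, which serve the separate ribosomes of mitochondria, went the other way in WT mice, with 23 of 77 (29.9%) higher and 0 lower and a median of 0.08 (21 higher and 1 lower with the other scaling). They gave 0 higher and 12 lower (0 and 23 with the other scaling) in Pparα-/- mice, where 15.6% lower lay near the 12.6% of all tested genes. Their count in Pparα hep-/- mice was 7 higher and 6 lower, but 1 higher and 27 lower with the other scaling. Of 38 regulators of translation 7 (18.4%) were lower and 1 higher in WT mice, and of 20 aminoacyl-tRNA synthetases 7 (35%) were lower and 0 higher.

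Markers of other liver cells moved with some of these comparisons. In bulk liver, fewer cells of a type and less RNA per cell cannot be told apart. Of 10 macrophage markers 0 were called for the diet in WT mice, 3 were higher in Pparα hep-/- and 8 higher in Pparα-/- mice, with a median of 0.80 there, and their summed log2 level ran from 14.80 to 16.42 on CTRL and 14.33 to 16.72 on HFD in WT mice and from 15.28 to 16.88 on CTRL and 16.00 to 17.00 on HFD in Pparα-/- mice. Of 6 stellate cell markers 0, 4 and 5 were higher in the 3 genotypes. In WT mice 1 of 3 tested white adipocyte markers moved with the diet, Cfd, which encodes the adipokine adipsin and was higher on HFD (5.79, adjusted p = 3.81e-07, against 0.58 and 0.64 in the null genotypes, not called). Their summed log2 level ran from 8.05 to 10.27 on CTRL and from 8.73 to 15.52 on HFD in WT mice, and from 7.79 to 9.49 in the other 4 groups, while Retn and Lep were not called in any genotype and Adipoq was too dim to be tested. On HFD 9 of 10 macrophage markers and 6 of 6 stellate cell markers were higher in Pparα-/- than in WT mice, and 3 of 10 and 0 of 6 than in Pparα hep-/- mice. Between Pparα hep-/- and WT mice on HFD, 7 of 10 macrophage, 5 of 6 stellate cell and 4 of 6 endothelial markers were higher in Pparα hep-/- mice and 0 lower. Of 9 lymphocyte markers 1 was higher and 2 lower in that comparison. The neutrophil and cholangiocyte lists each had 1 higher and 0 lower. The white adipocyte, exocrine pancreas and hepatocyte lists each had 0 higher and 1 lower. Of 8 neutrophil markers, 5 were higher and 1 lower in Pparα-/- than in WT mice on HFD, 3 higher and 1 lower than in Pparα hep-/- mice, and 0, 1 and 3 were higher on HFD in the 3 genotypes. Of 9 lymphocyte markers 4 were higher and 0 lower in Pparα-/- mice on HFD in both comparisons, and of 6 endothelial markers 4 were higher and 1 lower than in WT and 2 higher and 1 lower than in Pparα hep-/- mice. Of 5 cholangiocyte markers, 0 were higher and 2 lower in Pparα-/- than in Pparα hep-/- mice on HFD. Of 3 tested exocrine pancreas markers, 0, 1 and 2 were lower on HFD in the 3 genotypes and 0 higher, and 2 were lower and 1 higher in Pparα-/- than in WT mice on HFD, with summed log2 levels of 13.43 to 13.96 against 13.28 to 14.49. The macrophage counts for the diet were 0, 3 and 7 with the other scaling. The summed level of 9 tested hepatocyte markers lay between 20.77 and 21.08 in all groups. For the diet in Pparα-/- mice, 1 of these 9 was higher and 1 lower on HFD with quantile values, with a median of -0.03, and 7 were lower with the other scaling, with a median of -0.32. The part of other cell types in the ribosomal protein results was not tested.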

How the data were processed

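Total RNA of 48 livers was labelled with Cy3 and hybridised to 1-colour Agilent arrays, 8 mice per group, and scanned with Feature Extraction 10.10.1.1 according to the submitters' processing notes. The deposited intensity of a spot is its median pixel value, neither background subtracted nor normalized per the file headers. The authors' log2 table, which the study filtered, corrected for wash bath and quantile normalized, was used as an alternative. Its values had a correlation of at least 0.999 with those computed here on every array.

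Control spots and outlier spots were left out, intensities were put on the log2 scale, spots of a probe were averaged and arrays were quantile normalized in R 4.3.3 with limma 3.58.1. A filter kept the 33323 probes that were well above background on 4 or more of 8 arrays in some group. The linear model held 6 groups and the 2 wash batches of the labels, with array weights and moderated tests by limma, and p-values were adjusted by the Benjamini-Hochberg method over all tested probes in each of 12 contrasts. Missing values (195) were left out of the fit of their probe. Fitted changes are weighted and adjusted for wash batch, so they differ slightly from differences of means. The number of arrays limits the precision. Labels do not state cages or litters, so p-values measure the spread between these mice. The fit was tested on simulated data.

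The genes and lists were chosen with earlier results of these data known. Named with values are the called genes of largest change (3 each way for diet, 2 each way elsewhere), genes with known roles and paralogs, genes with opposed probes, and the 3 genes most correlated with the leading gene of each diet contrast. Other genes with values were named after these were seen. One result that the rule would name is not reported here. Positions of array probes refer to mm9, as the files give them, and promoter windows come from RefSeq on GRCm38.p6. Mice share numbers across groups, and the labels do not state that the numbers pair them. Of 24 pairs of same-numbered mice, 5 had correlated deviations over 0.1, in a range of -0.22 to 0.69. The highest belonged to WT mice 6, whose arrays on CTRL and HFD both had a weight under 0.5. Alternatives were scaling, background correction, filters, weights, wash batch, slide, probe choice, threshold, a replicate block and leaving out mice.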

Additional observations from a re-analysis of the deposited data

Results flagged for a closer look

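Pparα hep-/- CTRL mouse 1, whose array had a weight of 0.189, stood apart from the other 7 mice of its group in the median deviation of the 77 genes, at 0.30 with the nearest mouse at 0.03. Its log2 signal was also set apart from its group for Rpl11 (17.25), Rpl12 (16.10), Rpl13a (15.44), Rpl5 (14.92), Rplp1 (17.08), Rplp2 (17.16), Rps12 (16.23), Rps15a (15.05), Rps21 (15.66), Rps26 (15.56), Rps27a (16.55) and Rps4x (15.37). WT CTRL mouse 6, at a weight of 0.208, was highest for Rpl12 (16.11) and Rplp2 (17.28), and WT CTRL mouse 3 for Rpl23a (14.62) and Rpl27a (15.48). Pparα-/- CTRL mouse 3 was highest for Rpl13a (15.14) and Pparα hep-/- HFD mouse 5 for Rpl3 (15.46). Of 186 groups of values examined by Dixon's test, 19 (10.2%) had such a mouse, where chance gives 5%, and 13 of the 19 were the same mouse. Genes of 1 array are not independent of each other.

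The diet response differed between genotypes, by the interaction in limma, for 67 genes when Pparα-/- mice were set against WT mice, for 31 when they were set against Pparα hep-/- mice, and for 5 in Pparα hep-/- against WT mice. Of all tested genes 15.5%, 3.93% and 11.2% differed, so the last count lay under the share of all genes. With scaling to the 75th percentile these counts were 11, 16 and 2.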

How the results depend on the processing

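Results are counts of called ribosomal protein genes, in both directions together, unless a median is named. Without array weights they were 8 for the diet in Pparα-/- mice, 9 for Pparα hep-/- against WT and 10 for Pparα-/- against Pparα hep-/- on CTRL, 2 for Pparα hep-/- against WT on HFD, and 37, 4 and 0 for the differences of response (Pparα-/- against WT, Pparα-/- against Pparα hep-/-, Pparα hep-/- against WT, the order kept below; the last had 1 higher and 1 lower at an unadjusted p under 0.05 in limma). With scaling to the 75th percentile they were 75 and 20 for the diet in Pparα hep-/- and Pparα-/- mice, 56 and 21 for Pparα hep-/- and Pparα-/- against WT on HFD, and 11, 16 and 2 for the responses. The median turned to -0.083 for the diet in Pparα-/- mice and to -0.049 for the response of Pparα hep-/- against WT mice. The median of the other bright genes moved to -0.147 and -0.153 in these comparisons. With no filter on dim probes they were 23 for the diet in Pparα-/- mice, 21 for Pparα hep-/- against WT on CTRL and 1 on HFD, and 17 and 1 for the last pair of responses.

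At an adjusted p of at most 0.01 they were 16 and 20 for the diet in Pparα hep-/- and Pparα-/- mice, 14, 18 and 10 on CTRL (Pparα hep-/- against WT, Pparα-/- against WT, Pparα-/- against Pparα hep-/-), 1 for Pparα hep-/- against WT on HFD, and 16 and 1 for the last pair of responses. The small count for the response of Pparα hep-/- against WT mice was also 8 with normexp, 9 with the dimmest probe, 12 with the filter on all 8 arrays and 3 with slide as a block. Without the wash batch term Pparα hep-/- against WT on HFD gave 1. Medians near 0 changed sign, to 0.0069 for Pparα-/- against Pparα hep-/- on CTRL without the wash batch and to 0.0058 for Pparα hep-/- against WT on HFD with slide as a block. The cause of these moves was not tested.

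Arrays of weight under 0.5 were left out as an alternative chosen after seeing the data. It gave 18 for the response of Pparα hep-/- against WT mice, and 13 and 3 for the last pair of responses when weights were dropped too. Medians turned to 0.000036 for Pparα-/- against Pparα hep-/- on CTRL and 0.013 for Pparα hep-/- against WT on HFD.

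With the replicate number as a block, the response of Pparα hep-/- against WT mice gave 2, and no other count moved by over 1.5 times. The labels do not state that the numbers pair the mice.

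Leaving out single mice gave 52 to 64, 18 to 27 and 25 to 38 for the diet in WT, Pparα hep-/- and Pparα-/- mice. On CTRL it gave 20 to 39, 22 to 35 and 14 to 20 in the order above. On HFD it gave 2 to 7 for Pparα hep-/- against WT (2 without WT HFD mouse 7 and 3 without Pparα hep-/- HFD mouse 6), 60 to 66 for Pparα-/- against WT and 64 to 68 for Pparα-/- against Pparα hep-/-. The responses gave 61 to 72, 22 to 37 and 2 to 14.

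Within 1 wash batch, the median change on HFD was -0.25 and -0.15 in WT, -0.13 and -0.04 in Pparα hep-/- and 0.09 and 0.11 in Pparα-/- mice. The signals of these genes were far above background.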
